A study of Homo sapiens with 12 samples.

Results

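The granule proteins of myeloid precursors described here are the products of 10 genes: MPO, ELANE, PRTN3, AZU1, CTSG, LYZ, CFD, RNASE2, RNASE3 and SRGN. They were taken by symbol from a table of 20030 genes, and each of the 10 symbols had 1 entry. The table held mRNA-seq levels of 12 libraries from MOLM-13 and THP-1, established human acute myeloid leukaemia (AML) lines that both carry a rearrangement of MLL (KMT2A). MOLM-13 also carries the FLT3 internal tandem duplication, whereas THP-1 has wild-type FLT3. In each line 3 control libraries came from cells kept with DMSO, the solvent, and 3 from cells treated with Jiyuan oridonin A (JOA), a kaurene diterpenoid from an Isodon plant, all for 48 h by the labels and the methods, although a legend of the study gives a longer time. JOA was given at 0.5 μM to MOLM-13 and at 2 μM to THP-1, so line and dose cannot be told apart in any difference of response. Each line stands for a single leukaemia. The study says in general that experiments were repeated, but neither it nor the labels ties the libraries of one group to separate cultures, so every p-value measures only the spread between these libraries.

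Granules are secretory stores that the cells of the neutrophil and monocyte lineages fill in steps while they mature. The primary or azurophil granules come first, at the promyelocyte stage, and their genes are shut off as the cell matures further. Myeloperoxidase (MPO) makes hypochlorous acid. Neutrophil elastase (ELANE), proteinase 3 (PRTN3) and cathepsin G (CTSG) are serine proteases, and azurocidin (AZU1) is a relative of them that has lost catalytic activity and kills bacteria. Lysozyme (LYZ) cleaves the bacterial cell wall and is made by granulocytes and monocytes alike. RNASE2 (eosinophil-derived neurotoxin) and RNASE3 (eosinophil cationic protein) are ribonucleases of the RNase A family. Complement factor D (CFD, adipsin) is the serine protease that cleaves factor B in the alternative complement pathway. Serglycin (SRGN) is the proteoglycan whose sulphated chains pack the basic proteins into the granule.

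Levels are given in FPKM, fragments per kilobase of transcript scaled to the fragments mapped in the library, which allows levels of different genes to be compared within a library. The number of reads per library is unknown, so no counting interval can be given. FPKM summed over all genes ranged from 291127 to 325023. All 10 monocytic markers examined, among them SPI1, CD33 and CD68, reached 0.1 FPKM in the highest library of each group. CD14 was low, with group means from 0.14 FPKM in MOLM-13 controls to 0.64 in THP-1 with JOA. Summed over the 10, the level was 199 to 216 FPKM in MOLM-13 control libraries and 221 to 268 with JOA. In THP-1 it was 250 to 274 in controls and 300 to 316 with JOA. Erythroid markers summed to at most 0.209 FPKM in any library and T cell markers to at most 3.8. B cell markers summed to at most 0.519 FPKM in MOLM-13 and to 8.96 to 11.2 in THP-1, mostly CD79B, while MS4A1 was listed at 0 in 3 of the 4 groups. Eosinophil and mast cell markers summed to 14.1 to 66.3 FPKM in MOLM-13 and to 0.88 to 1.2 in THP-1.

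Several granule transcripts, though not MPO or RNASE3, were among the most abundant mRNAs of both lines. The 10 genes together made up 2.59 ± 0.356% (SD, n = 3) of the summed FPKM in MOLM-13 controls and 2.94 ± 0.435% with JOA. In THP-1 they made up 1.86 ± 0.0781% in controls and 1.85 ± 0.156% with JOA. PRTN3 and LYZ led in MOLM-13, where PRTN3 stood between rank 3 and rank 16 of all genes and LYZ between rank 2 and rank 18. The members spanned a wide range: the highest library had 28.3 FPKM for MPO, RNASE3 reached at most 7.80 FPKM in THP-1, and the lowest library of PRTN3 had 1053 FPKM. In MOLM-13 controls the order by mean level was LYZ, PRTN3, AZU1, SRGN, RNASE2, ELANE, CTSG, CFD, RNASE3 and MPO. The libraries of LYZ and PRTN3, of AZU1 and SRGN, and of ELANE and CTSG overlapped there, so these neighbours were not separated by their spread. In THP-1 controls PRTN3 came first, followed by LYZ, CTSG, SRGN, ELANE, AZU1, RNASE2, CFD, MPO and RNASE3. There the libraries of PRTN3 and LYZ, of LYZ and CTSG, of CTSG and SRGN, and of ELANE and AZU1 overlapped.

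**Figure D1:**
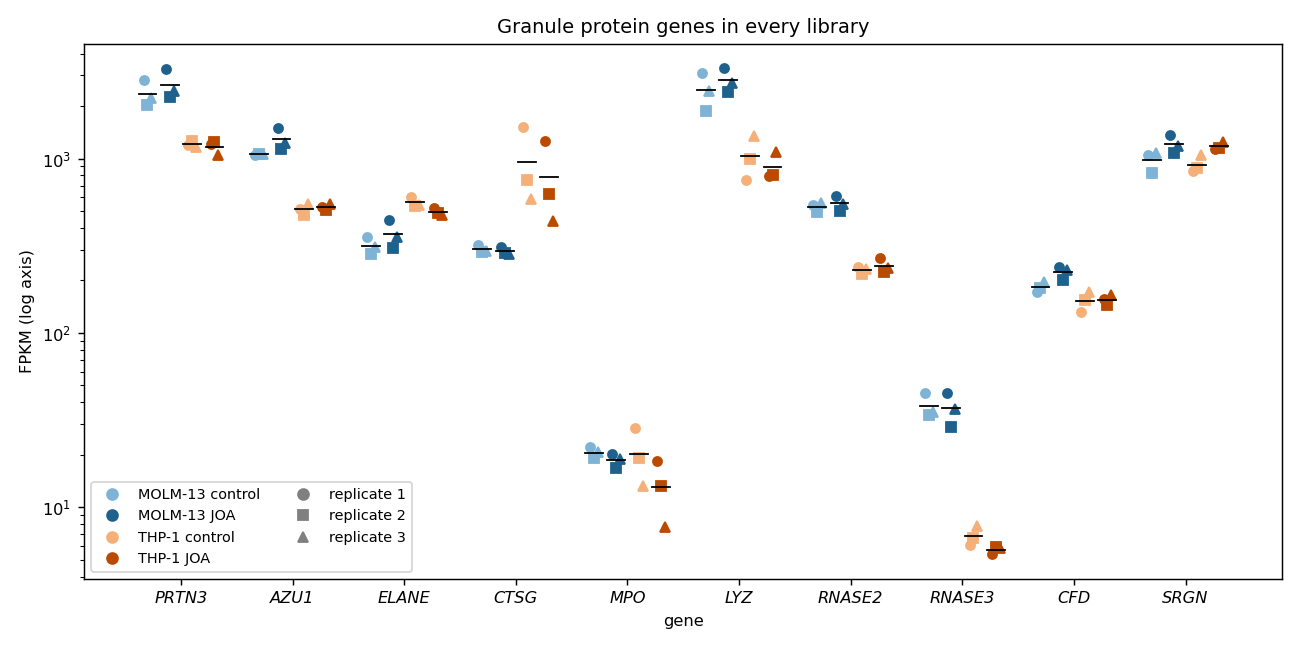
FPKM of the 10 granule genes in each of the 12 libraries, on a log axis, with a point for each library and a short line at the group mean. MOLM-13 libraries lie above THP-1 libraries for PRTN3, AZU1, LYZ, RNASE2 and RNASE3, and below them for ELANE and CTSG, while the THP-1 points of CTSG and MPO are the most spread.

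The question of how far the granule programme differs between the lines without the compound was put to the control libraries. Line and library preparation cannot be told apart in this comparison. Of the 12635 genes tested, 44.0% differed between THP-1 and MOLM-13 controls at a Benjamini-Hochberg adjusted p under 0.05 by limma and a log2 fold change of at least 0.58 in size, 25.0% being higher in THP-1 and the rest lower. By the same rule 7 of the 10 granule genes differed, 2 higher and 5 lower, and these 7 were also the ones whose groups did not overlap, as in 74.8% of all genes tested. ELANE and CTSG were higher in THP-1, and PRTN3, AZU1, LYZ, RNASE2 and RNASE3 were lower. CFD, MPO and SRGN did not pass. The median log2 difference was -0.61 over the 10 genes and 0.06 over all genes tested. The same control libraries serve in the JOA comparisons. In bulk RNA, fewer cells with a transcript cannot be told apart from less of it per cell.

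Among the serine proteases, PRTN3 had 2804, 2023 and 2212 FPKM in the MOLM-13 controls and 1193, 1257 and 1163 FPKM in the THP-1 controls. Each THP-1 library lay below each MOLM-13 library, and the log2 difference was -0.95 (SE 0.13, adjusted p = 0.000214 by limma). AZU1 had 1053, 1057 and 1067 FPKM in MOLM-13 and 510.3, 471 and 551 FPKM in THP-1. Its MOLM-13 controls were the closest of all, with a highest library only 1.01 times the lowest, and the log2 difference was -1.06 (SE 0.079, adjusted p = 7.1e-06 by limma). ELANE went the other way, with 353, 284 and 313 FPKM in MOLM-13 and 605, 537 and 539.9 FPKM in THP-1. The groups did not overlap, and ELANE was higher in THP-1 by 0.83 on the log2 scale (SE 0.10, adjusted p = 8.87e-05 by limma). CTSG had 320.4, 293 and 296 FPKM in MOLM-13 and 1514, 749 and 589 FPKM in THP-1. All 3 THP-1 libraries were above MOLM-13, but they differed among themselves by 2.57 times, and the log2 difference was 1.53 (SE 0.30, adjusted p = 0.00182 by limma). Leaving out the first THP-1 control gave 1.13 for CTSG and kept its call.

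The proportions of PRTN3 and AZU1 to ELANE within a library differed between the lines, which follows from the values above. PRTN3 mRNA was 7.38 ± 0.484 times ELANE mRNA in MOLM-13 controls and 2.16 ± 0.184 times in THP-1 controls (SD, n = 3). AZU1 stood at 3.37 ± 0.372 times ELANE in MOLM-13 and at 0.914 ± 0.0939 times in THP-1. The ratio of PRTN3 to AZU1 was similar, 2.22 ± 0.394 in MOLM-13 and 2.37 ± 0.28 in THP-1, with overlapping libraries.

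AZU1, PRTN3, ELANE and CFD lie next to one another in this order on the plus strand of chromosome 19, within 38534 bases (GRCh38, GENCODE release 29, chr19:825097-863630). PRTN3 spans chr19:840960-848175 and ELANE chr19:851014-856247, with 2838 bases between them. These neighbours differed between the lines in opposite directions. Of the 3 protein-coding genes before the cluster, PTBP1 had a log2 difference of -0.20 and PLPPR3 one of -0.24, both short of the fold threshold, and MISP was below the filter on low levels. Of the 3 after it, MED16 had -0.23 and did not pass. R3HDM4 was lower in THP-1 (-0.73, adjusted p = 1.65e-05 by limma), with 27.2 ± 1.33 FPKM in MOLM-13 and 16.4 ± 0.616 in THP-1. KISS1R, a neuropeptide receptor, was higher in THP-1 (2.17, adjusted p = 0.000162 by limma) at a low level of 0.412 ± 0.156 FPKM, against 0.0112 ± 0.0195 in MOLM-13. With JOA none of these neighbours that could be tested was called in either line.

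**Figure D2:**
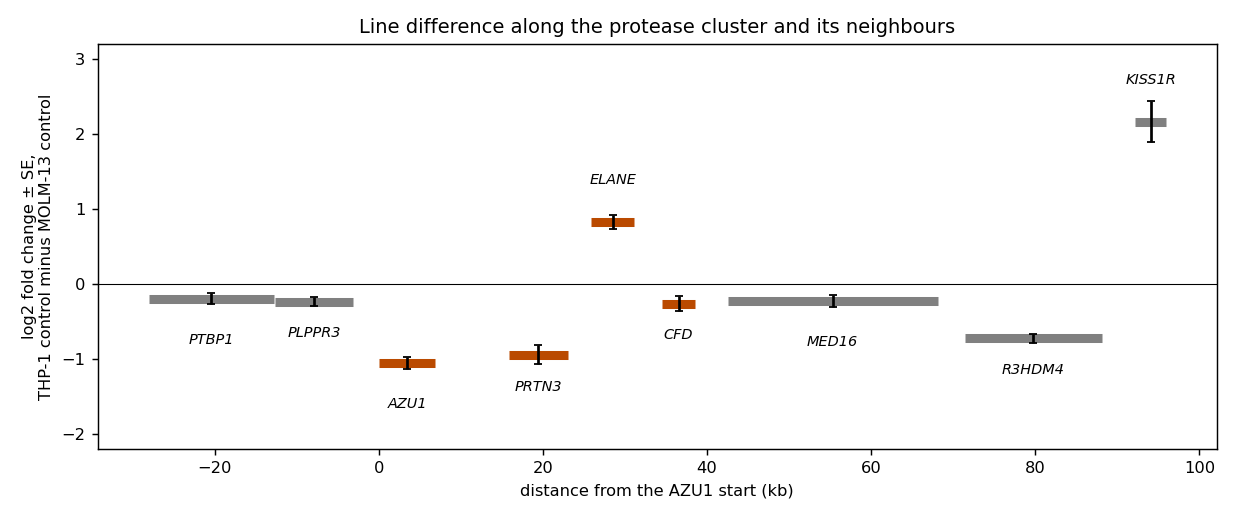
Log2 difference between THP-1 and MOLM-13 controls, with its standard error, for AZU1, PRTN3, ELANE, CFD and their tested neighbours, placed by distance from the start of AZU1 in kilobases. ELANE, at 0.83, stands above the zero line between PRTN3 at -0.95 and CFD at -0.27.

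The promoters of AZU1, PRTN3 and CTSG are shown because AZU1 and PRTN3 were both lower in THP-1 and CTSG was higher. The sequences are from RefSeq (GRCh38.p14) and hold no annotated exon, bases next to the start site being left out where one begins. Those of PRTN3 and CTSG lie upstream of the gene, and that of AZU1 lies inside the span given above, in the first intron of a GENCODE transcript that starts further upstream. Capitals mark TTGCNNAA (a C/EBP motif), GAGGAA (a PU.1 motif) and AACNG (a MYB motif), searched on both strands. Matches that overlap run together.
AZU1, chr19:827587-827835, plus strand: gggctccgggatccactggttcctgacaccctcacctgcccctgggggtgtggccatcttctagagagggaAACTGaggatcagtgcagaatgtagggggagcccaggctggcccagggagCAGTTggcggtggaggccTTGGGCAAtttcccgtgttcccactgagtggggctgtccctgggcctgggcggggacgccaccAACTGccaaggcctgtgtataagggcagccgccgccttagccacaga
PRTN3, chr19:840749-840959, plus strand: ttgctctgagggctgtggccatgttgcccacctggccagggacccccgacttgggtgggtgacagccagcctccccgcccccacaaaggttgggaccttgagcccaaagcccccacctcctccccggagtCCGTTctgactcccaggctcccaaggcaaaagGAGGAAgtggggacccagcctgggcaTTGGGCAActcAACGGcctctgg
CTSG, chr14:24576261-24576500, minus strand: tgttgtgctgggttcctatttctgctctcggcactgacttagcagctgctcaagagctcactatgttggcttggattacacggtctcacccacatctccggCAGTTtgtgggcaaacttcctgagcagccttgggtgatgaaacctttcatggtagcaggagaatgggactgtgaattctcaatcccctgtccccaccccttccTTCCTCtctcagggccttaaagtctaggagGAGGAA
In the 250 bases before the start site, AZU1 and PRTN3 each held 1 match to the C/EBP motif, with the same letters ttgggcaa, and CTSG held none. CTSG held 2 matches to the PU.1 motif, PRTN3 held 1 and AZU1 none. Among 27305 promoters of the same length, 9.1% held the C/EBP letters, 23.4% the PU.1 letters and 70.6% the MYB letters. A match describes the letters only. TGNGGT, a RUNX1 motif, and TATAAA occurred in 37.6% and 11.1% of promoters and in none of the 6 members with an entry, which were AZU1, PRTN3, CTSG, CFD, RNASE2 and RNASE3.

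MPO, the marker enzyme of the primary granule, was low beside most of the other members in both lines. Among all genes it stood between rank 2384 and rank 2601 in MOLM-13 controls and between rank 1850 and rank 3550 in THP-1 controls. It had 22.0, 19.1 and 20.7 FPKM in MOLM-13 controls and 28.3, 19.1 and 13.2 FPKM in THP-1 controls. The groups overlapped, and the log2 difference of -0.09 (SE 0.23, adjusted p = 0.731 by limma) became 0.18 without the third THP-1 control. LYZ was lower in THP-1, with 755, 988 and 1354 FPKM against 3106, 1873 and 2439.6 FPKM in MOLM-13. Its libraries varied widely within each line, yet the groups did not overlap, and the log2 difference was -1.27 (SE 0.24, adjusted p = 0.00156 by limma). AZU1 and LYZ share some of their 50-base stretches with transcripts of other genes (4.99% and 9.79%), so a part of their reads could have been assigned either way.

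Of the 10 genes, RNASE3 showed the largest difference between the lines. It had 44.9, 33.6 and 35.1 FPKM in MOLM-13 controls and 6.08, 6.69 and 7.80 FPKM in THP-1 controls. The lowest MOLM-13 library was far above the highest THP-1 library, and the log2 difference was -2.45 (SE 0.13, adjusted p = 9.72e-07 by limma). RNASE2 had 543, 494 and 554 FPKM in MOLM-13 and 239, 217 and 233 FPKM in THP-1. It was tightly grouped in both lines, and lower in THP-1 by a log2 difference of -1.21 (SE 0.07, adjusted p = 2.23e-06 by limma). RNASE2 mRNA was 14.2 ± 1.9 times RNASE3 mRNA in MOLM-13 controls and 33.9 ± 4.86 times in THP-1 controls (SD, n = 3), so both genes were lower in THP-1 but by unequal amounts. Their transcripts are 84.8% identical and share 3.26% of the 50-base stretches of RNASE2 and 5.37% of those of RNASE3, which leaves a small part of their reads uncertain. Eosinophil and mast cell markers also differed between the lines, as given above, mostly through PRG2 (major basic protein), at 61.9, 13.8 and 15.2 FPKM in MOLM-13 controls and 0.339, 0.579 and 0.417 in THP-1 controls. MS4A2 went the other way, at 0.309 ± 0.0428 FPKM in THP-1 and 0.0731 ± 0.0518 in MOLM-13 (1.28, adjusted p = 0.00179 by limma). EPX had -1.41 (limma adjusted p = 0.103), with 2.63, 0.23 and 0.40 FPKM in MOLM-13 controls and 0.33, 0.14 and 0.14 in THP-1 controls. With the replicate number as a term of the fit its adjusted p was 0.021 (limma). The numbers tie no library of one line to one of the other, so that value cannot be relied on. CPA3 was listed at 0 in all 4 groups. Their part in the RNASE2 and RNASE3 difference was not tested.

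RNASE2 and RNASE3 lie on the plus strand of chromosome 14, at chr14:20955452-20956436 and chr14:20891399-20892348. The sequences before their RefSeq start sites are shown because the genes are close copies that differed by unequal amounts. Capitals mark the same motifs.
RNASE2, chr14:20955237-20955451, plus strand: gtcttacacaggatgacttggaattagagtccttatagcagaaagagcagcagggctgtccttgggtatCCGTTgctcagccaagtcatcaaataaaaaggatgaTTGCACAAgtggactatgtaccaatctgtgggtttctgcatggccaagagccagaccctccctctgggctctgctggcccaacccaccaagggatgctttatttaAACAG
RNASE3, chr14:20891135-20891384, plus strand: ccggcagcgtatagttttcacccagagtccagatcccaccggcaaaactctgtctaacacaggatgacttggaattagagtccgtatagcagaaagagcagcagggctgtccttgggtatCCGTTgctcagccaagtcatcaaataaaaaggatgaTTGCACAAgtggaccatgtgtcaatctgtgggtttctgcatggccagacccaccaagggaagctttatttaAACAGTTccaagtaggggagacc
Aligned with each other, the 2 stretches had the same base at 174 of 181 paired positions (96.1%), with 7 mismatches and 1 gap of 34 bases. In the 250 bases before the start site, each gene held 1 match to the C/EBP motif, with the same letters ttgcacaa, and 3 to the MYB motif. The printed RNASE2 stretch stops 35 bases short of that site and cuts through the last MYB match. The PU.1 letters were in neither.

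CFD and SRGN differed little between the control libraries of the lines. CFD had 171, 182 and 195 FPKM in MOLM-13 controls and 132, 154 and 172 FPKM in THP-1 controls. The groups overlapped by a single library on each side, and the log2 difference of -0.27 (SE 0.10, adjusted p = 0.0438 by limma) was short of the fold threshold. SRGN had 1045, 824 and 1075 FPKM in MOLM-13 and 844, 881 and 1047 FPKM in THP-1. The libraries interleaved, with a log2 difference of -0.08 (SE 0.13, adjusted p = 0.578 by limma).

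Between the JOA libraries of the lines, at unequal doses, 45.0% of genes tested differed by the same rule. CTSG was again higher in THP-1 (1.26, adjusted p = 0.00765 by limma) and PRTN3, AZU1, LYZ, RNASE2 and RNASE3 were again lower. ELANE had a log2 difference of 0.44 (adjusted p = 0.0119 by limma), under the fold threshold, with no overlap of libraries. CFD, at -0.52 (adjusted p = 0.000459 by limma), was also under the fold threshold and without overlap. Libraries of the lines did not overlap for 9718 of the 12606 genes tested. MPO had -0.59, with an adjusted p of 0.0799 by limma, or of 0.0418 with the replicate number as a term, although the numbers tie no library of one line to one of the other.

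Other primary granule and precursor genes also differed between the control libraries in both directions. The counts of this and the following lists stand beside 44.0% of all genes called, 25.0% higher in THP-1. Of 11 tested from a list of 15, 3 were higher and 5 lower in THP-1, with a median log2 difference of -1.41. PRG2 (-5.46), CST7, the protease inhibitor cystatin F (-5.41), and BPI, which binds bacterial endotoxin (-5.34), were lower. PRSS57, a further azurophil serine protease, was also lower, with 292, 249 and 289 FPKM in MOLM-13 against 17.9, 9.75 and 8.84 FPKM in THP-1 (-4.57, adjusted p = 8.56e-07 by limma). DEFA4, a defensin of the primary granule, was higher in THP-1, with 8.41, 5.38 and 5.77 FPKM, and was listed at 0 in every MOLM-13 library. The defensin genes DEFA1, DEFA1B and DEFA3 were listed at 0 throughout.

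Genes of the later secondary and tertiary granules were higher in THP-1 or did not pass: 6 of 8 tested from a list of 15 were higher and 0 lower, with a median log2 difference of 1.46. SLPI, an inhibitor of elastase and cathepsin G, had 184, 157 and 124 FPKM in THP-1 against 0.804, 1.52 and 0.853 in MOLM-13 (7.10, adjusted p = 1.08e-07 by limma). CHI3L1 had a log2 difference of 3.73, TCN1 of 2.09 and CAMP of 1.69, with CAMP and TCN1 below 1 FPKM in both lines. LTF (lactoferrin), the defining protein of the secondary granule, was listed at 0 in all 12 libraries.

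Of the genes that activate or inhibit serine proteases, 6 of 9 tested were higher in THP-1 and 1 was lower. SERPINB2 (3.62), A2M (2.64) and SERPINB10 (2.11) were higher besides SLPI, and SERPINB1, an inhibitor of neutrophil elastase, cathepsin G and proteinase 3, was lower (-1.32), with 35.4 ± 4.19 FPKM in MOLM-13 and 14.2 ± 2.05 in THP-1. CTSC, which activates the granule serine proteases, had 28.1 FPKM in MOLM-13 and 24.7 in THP-1. In the RNase A family outside RNASE2 and RNASE3, 1 of 3 tested genes differed, RNASE6, which was lower in THP-1 (-4.58, 40.9 ± 4.19 against 1.62 ± 0.182 FPKM).

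Among 16 genes that build the glycosaminoglycan chains of serglycin, 4 of 14 tested were higher and 2 lower in THP-1. CHPF (1.58), CHSY1 (1.50) and UST (1.27) were higher and XYLT1 (-1.28), which adds the first sugar of the chain, was lower. UST was near the filter on low levels, with 0.0189 ± 0.0151 FPKM in MOLM-13 and 0.188 ± 0.0586 in THP-1. In the alternative complement pathway, C3 was higher (3.31) and properdin (CFP, -1.40) was lower. Of 12 transcription factors known to act on granule genes, 5 were higher and 1 lower. CEBPE, the C/EBP factor of late granule genes, had 1.37 ± 0.233 FPKM in MOLM-13 and 6.05 ± 0.681 in THP-1. Its log2 difference was 2.07 (adjusted p = 3.59e-06 by limma). LEF1 (1.76) and KLF4 (0.86) were also higher and CEBPD (-0.84) was lower. LEF1 was near the filter as well, listed at 0 in MOLM-13 controls and with 0.243 ± 0.0734 FPKM in THP-1 controls.

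The next question was how the granule genes responded to JOA in MOLM-13 at 0.5 μM. No granule gene changed by the test. Of 11693 genes tested by limma, 0 (0%) passed in either direction, and 481 (4.11%) had an unadjusted p under 0.05, among them AZU1 (0.0327), CFD (0.00888) and SRGN (0.0482). With same-numbered libraries as a block, 0 passed and 1295 (11.1%) had an unadjusted p under 0.05, among them 7 of the 10 granule genes, MPO, ELANE, PRTN3, AZU1, LYZ, CFD and SRGN. The median log2 difference was 0.19 over the 10 genes and 0.01 over all genes tested.

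**Figure D3:**
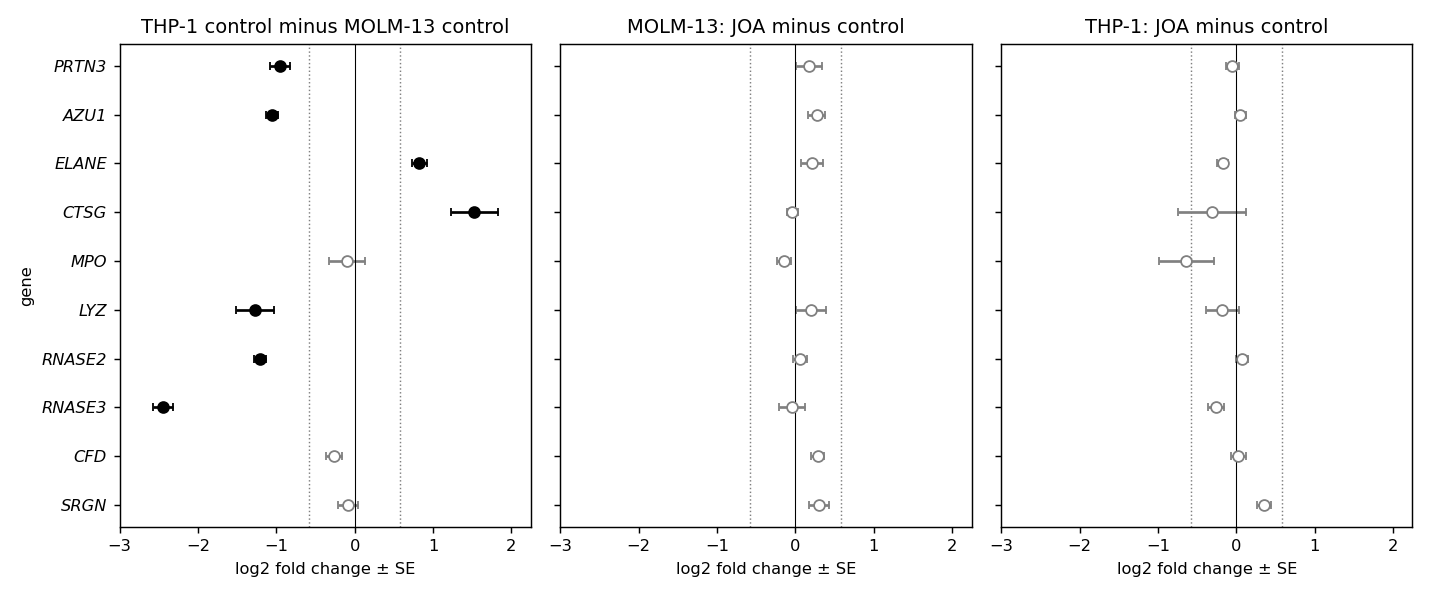
Log2 difference, with its standard error, for each granule gene in 3 panels: THP-1 against MOLM-13 controls, JOA against control in MOLM-13, and JOA against control in THP-1. In the JOA panels SRGN lies near 0.30 in MOLM-13 and 0.35 in THP-1, ELANE lies on opposite sides of zero, and MPO in THP-1 is lowest at -0.64 with a wide error.

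CFD had 171, 182 and 195 FPKM in controls and 238, 201 and 228 FPKM with JOA. All JOA libraries were above all controls, with a log2 difference of 0.28 (SE 0.08, adjusted p = 1 by limma). AZU1 went from 1053, 1057 and 1067 FPKM in controls to 1496, 1139 and 1228 FPKM with JOA. Its groups did not overlap either, with a log2 difference of 0.27 (SE 0.11, adjusted p = 1 by limma). CFD and AZU1 were the 2 granule genes without overlap, both with JOA above control, where 5.10% of all genes tested had such a pattern. SRGN had 1364, 1072 and 1176 FPKM with JOA against 1045, 824 and 1075 in controls. The ranges touched only through the lowest JOA and the highest control library, and the log2 difference was 0.30 (SE 0.13, adjusted p = 1 by limma).

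Among the other proteases, ELANE had 446, 308 and 353 FPKM with JOA, and PRTN3 had 3267, 2249 and 2431 FPKM. Both overlapped their controls, with log2 differences of 0.21 (SE 0.14) and 0.17 (SE 0.17). CTSG had 313, 286 and 285 FPKM with JOA and a log2 difference of -0.04 (SE 0.07). The first library was the highest of its group for ELANE, PRTN3, CTSG, LYZ, MPO and RNASE3, in controls and with JOA alike. PRG2, at 64.0, 16.0 and 15.1 FPKM with JOA, was also highest there in both groups. The part of this library pair in the levels was not tested.

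LYZ had 3292, 2408 and 2727 FPKM with JOA, the first of them above every control, and a log2 difference of 0.20 (SE 0.19). MPO had 20.3, 16.8 and 18.9 FPKM, with a log2 difference of -0.14 (SE 0.09). RNASE2 had 610.4, 502 and 549 FPKM and RNASE3 45.4, 28.9 and 36.6 FPKM. The ranges of both ribonucleases overlapped those of their controls, with log2 differences of 0.06 and -0.05.

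Within same-numbered pairs, ELANE, PRTN3, AZU1, LYZ, CFD and SRGN were higher with JOA in 3 of 3 pairs, as were 18.5% of all genes tested. MPO and CTSG were lower in 3 of 3 pairs, as were 15.7%. The ratio of JOA to control was 1.31, 1.30 and 1.09 for SRGN and 0.922, 0.88 and 0.912 for MPO in pairs 1 to 3. For PRTN3 it was 1.17, 1.11 and 1.10. For each of these genes the pairs thus shared a direction, up for some and down for MPO and CTSG. RNASE2 and RNASE3 were mixed over the pairs. The fitted test, with or without the block, passed no member, the lowest adjusted p with the block being 0.319 for SRGN (limma).

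**Figure D4:**
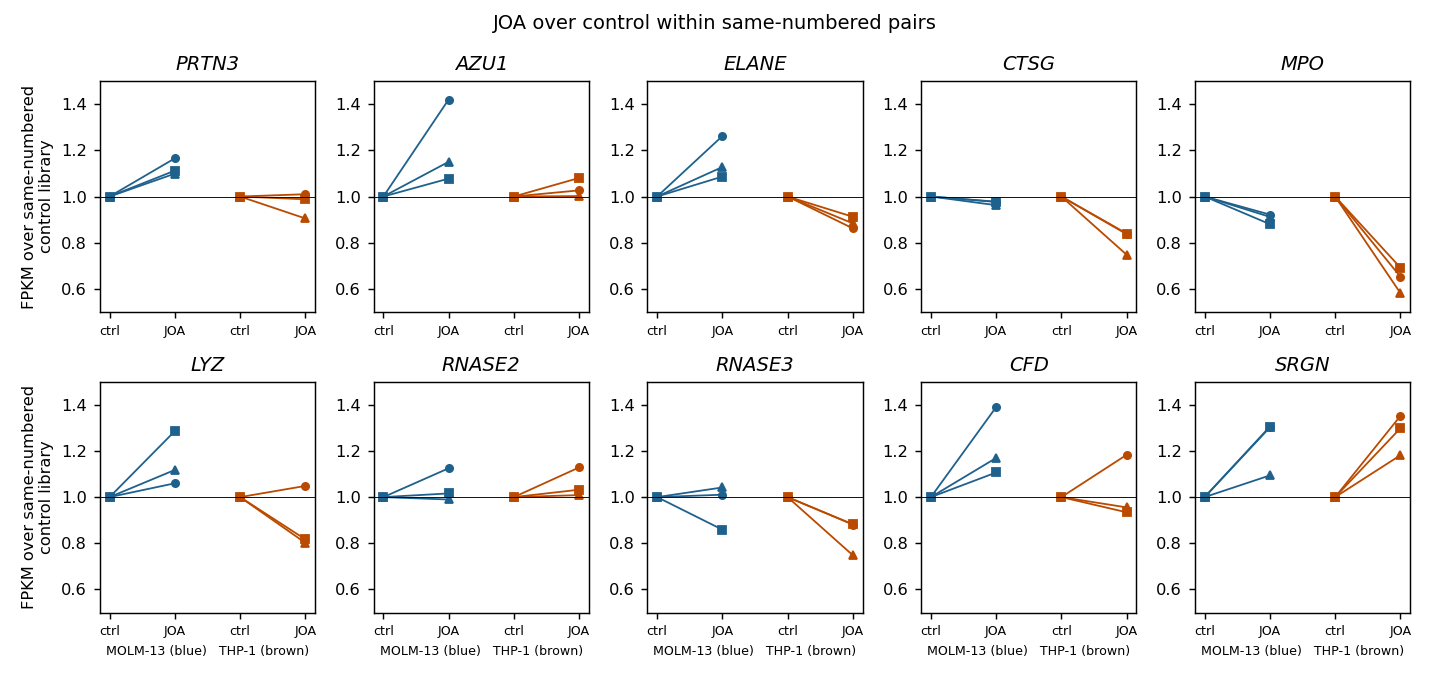
Ratio of JOA to control FPKM within each same-numbered pair of libraries, drawn from the control at 1 for each granule gene in each line on a linear axis. The 3 MPO ratios in THP-1 lie between 0.582 and 0.692, below those of MOLM-13 at 0.88 to 0.922, and the SRGN ratios lie above 1 in both lines.

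The same question was put to THP-1 at 2 μM. By limma without a block, 17 of 12712 genes tested (0.134%) passed, 7 higher and 10 lower with JOA, and none of the 10 granule genes was among them. With same-numbered libraries as a block, 161 genes (1.27%) passed, 80 of them lower (0.629%), and MPO was the 1 granule gene called, lower with JOA. The median log2 difference was -0.11 over the 10 genes and 0.02 over all genes tested. An unadjusted p under 0.05 without the block was found for 16.9% of genes, including ELANE, RNASE3 and SRGN.

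MPO had 28.3, 19.1 and 13.2 FPKM in THP-1 controls and 18.5, 13.2 and 7.68 FPKM with JOA. The groups overlapped, but each JOA library was below the same-numbered control, at 0.653, 0.692 and 0.582 times. This pairing was taken from the replicate numbers and the data, and no label states it. The log2 difference was -0.64, with an SE of 0.35 and an adjusted p of 0.399 without the block, and an SE of 0.06 and an adjusted p of 0.00659 with it (limma). With pair 3 left out, the blocked difference was -0.57 (adjusted p = 0.00196 by limma), short of the fold threshold by a narrow margin. Without pair 1 or pair 2 it was -0.65 and -0.69 and stayed called.

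CTSG had 1514, 749 and 589 FPKM in controls and 1268, 629 and 440.4 FPKM with JOA. It shared the pattern of MPO, with wide overlap between the groups and a lower JOA library in each pair, at 0.837, 0.84 and 0.748 times. The log2 difference was -0.31 (SE 0.44, adjusted p = 0.771 by limma). With the block the adjusted p was 0.02, but the size was under the fold threshold. Without the block the direction turned when 1 library was left out, to 0.087 without control 1 and to 0.031 without JOA library 3.

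ELANE had 605, 537 and 539.9 FPKM in controls and 522, 490.1 and 477 FPKM with JOA. Each JOA library was below each control, with a log2 difference of -0.17 (SE 0.07, adjusted p = 0.251 by limma). RNASE3 had 5.36, 5.90 and 5.84 FPKM with JOA against 6.08, 6.69 and 7.80 in controls. It too did not overlap, with a log2 difference of -0.26 (SE 0.10, adjusted p = 0.24 by limma). Without overlap and lower with JOA were 8.81% of all genes tested.

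SRGN was the 1 granule gene without overlap and higher with JOA, a pattern found in 14.6% of genes tested. It had 844, 881 and 1047 FPKM in controls and 1140.2, 1144 and 1237 FPKM with JOA. The log2 difference was 0.35 (SE 0.09, adjusted p = 0.121 by limma), and the ratios in the pairs were 1.35, 1.30 and 1.18. With the block the adjusted p was 0.0162, again under the fold threshold.

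The remaining members overlapped their controls. PRTN3 had 1205, 1242 and 1053 FPKM with JOA and a log2 difference of -0.05 (SE 0.08). AZU1 had 524, 509 and 552 FPKM and a difference of 0.05 (SE 0.07). LYZ, at 791, 808 and 1086 FPKM, had -0.18 (SE 0.21). CFD and RNASE2 showed differences of similar small size. CFD had 156, 144 and 164 FPKM and a difference of 0.03 (SE 0.10), and RNASE2 had 269.7, 224 and 235 FPKM and a difference of 0.08 (SE 0.08). Over the pairs, MPO, ELANE, CTSG and RNASE3 were lower with JOA in 3 of 3, as were 19.4% of genes tested, and AZU1, RNASE2 and SRGN were higher in 3 of 3, as were 29.3%.

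RNASE2 mRNA was 42.8 ± 6.58 times RNASE3 mRNA in THP-1 with JOA (SD, n = 3), and 50.3, 37.9 and 40.3 times in the single libraries. In controls it had been 39.3, 32.4 and 29.9 times, so that the groups overlapped.

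In the related lists no gene was called with JOA in MOLM-13, and none in THP-1 without the block. Over the genes tested in these lists, log2 differences ran from -0.47 (LCN2) to 0.49 (HP) in MOLM-13. In THP-1 they ran from -1.43 (LCN2) to 0.69 (CR1), both near the filter on low levels. The most abundant genes of the lists are given as examples. PRSS57 had 276.9 ± 24.0 FPKM in MOLM-13 controls and 325 ± 47.1 with JOA (0.22, SE 0.11), and GRN (progranulin) had 102 ± 11.2 and 125 ± 6.29 (0.30, SE 0.09). SERPINB1 had 35.4 ± 4.19 and 44.3 ± 3.03 FPKM (0.33, SE 0.09), and CHI3L1 35.9 ± 2.54 and 31.4 ± 2.42 (-0.19, SE 0.08). These were near the sizes of CFD and AZU1 and did not pass. CEBPA, IRF8, RNASE6, CD46, CHST11 and CHSY1 had log2 differences between -0.01 and 0.09 in MOLM-13. In THP-1 the same 6 genes lay between -0.27 and 0.19. SLPI had -0.29 in MOLM-13 and 0.13 in THP-1, and CD55 had -0.19 and 0.04. ANG, at 0.367 FPKM or less, had 0.17 in MOLM-13 and -0.30 in THP-1. CHI3L1 had 465, 486 and 478 FPKM in THP-1 controls and 387, 399.7 and 418 FPKM with JOA (-0.25, adjusted p = 0.0877 by limma).

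The block changed calls in THP-1. Over all genes tested, 0.134% were called without the block and 1.27% with it, 0.629% being lower with JOA. With the block, 2 of 10 tested genes of the other primary granule list were called lower with JOA in THP-1. DEFA4 had 6.01, 3.19 and 2.20 FPKM with JOA against 8.41, 5.38 and 5.77 in controls (-0.86, adjusted p = 0.25 without the block and 0.0215 with it, limma). IGLL1, at 0.926 FPKM or less, had -1.01 (0.485 and 0.0463). PRSS57, at 11.6, 8.30 and 5.87 FPKM with JOA, had -0.48 with a blocked adjusted p of 0.0203 (limma) and was under the fold threshold. SERPINB8 was higher, at 30.0, 24.3 and 26.3 FPKM against 16.4, 17.4 and 19.6 (0.59, adjusted p = 0.0543 without the block and 0.0127 with it, limma). Secondary and tertiary granule genes numbered 0 of 8 called, with or without the block, RNase A genes 0 of 3, transcription factors 0 of 12, glycosaminoglycan genes 0 of 15 and complement genes 0 of 5. At the shares over all genes, a count of 0 in lists this short does not set them apart. Of the 10 monocytic markers, ITGAM (CD11b) alone was called with the block, higher with JOA (0.71, adjusted p = 0.103 without it and 0.0348 with it, limma), and the summed level of that list was higher in each JOA library of THP-1 than in each control, as given above. Most of that came from CD68, at 131 ± 7.40 FPKM in controls and 168 ± 12.8 with JOA, whereas CD4 had a log2 difference of -0.23 without overlap, CSF1R one of -0.08 and CD86 one of -0.46, none of them called. The part of these markers in the MPO value was not tested.

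Whether the lines responded unequally was tested by the interaction of line and JOA over all 12 libraries. Of 12626 genes, 0 (0%) passed by limma at an adjusted p under 0.05, and 914 (7.24%) had an unadjusted p under 0.05. With the block 6 (0.0475%) passed, and no granule gene passed in either fit. The sizes were -0.49 for MPO (SE 0.41, adjusted p = 0.874, and 0.0659 with the block, limma) and -0.38 for ELANE (SE 0.17, adjusted p = 0.665, and 0.0762 with the block, limma). Of the 10 granule genes, 8 had a response that was lower in THP-1 than in MOLM-13, as did 5631 of the 12626 genes. RNASE2 had an interaction of 0.02 and SRGN of 0.05.

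The replicate libraries themselves differed most for CTSG and MPO in THP-1. Over the 3 THP-1 controls, CTSG spanned 1.36 on the log2 scale, the rank 32 among 10083 genes, and MPO spanned 1.10, at rank 62, where the median gene spanned 0.17. With JOA they spanned 1.53 (rank 21 of 10092) and 1.26 (rank 38). In both groups the first library was the highest and the third the lowest. LYZ spanned 0.843 (rank 142) in the controls, with the third library the highest. The ratio of LYZ to CTSG was 0.498, 1.32 and 2.30 in the THP-1 controls.

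Described over the 12 libraries after removing each line's mean of log2 levels, CTSG and MPO had a Pearson correlation of 0.902, and ELANE and PRTN3 one of 0.859. Over the 6 THP-1 libraries alone it was 0.909 for CTSG and MPO and -0.712 for CTSG and LYZ. These libraries include the JOA ones and share their replicate numbers, so the values describe these libraries and carry no test. Among 10067 genes, the 2 most like each member by this measure were RAB5B (0.954) and ST3GAL4 (0.942) for MPO and HIP1 (0.962) and VCL (0.941) for CTSG. For ELANE they were PPIB and NFE2 (0.912 each), for PRTN3 ERP29 (0.935) and SLC39A7 (0.934), and for AZU1 SEZ6L2 (0.939) and CERCAM (0.895). For LYZ they were RASSF2 (0.926) and SESN3 (0.912), and for SRGN PQLC2 (0.93) and PKM (0.929). CFD was most like ALAD (0.928) and FGD2 (0.917), RNASE2 most like HYAL3 (0.902) and S100A9 (0.901), and RNASE3 most like SAFB2 (0.939) and ZNF141 (0.916).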

How the data were processed

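Levels of 20030 genes were measured by mRNA-seq in 12 libraries, 3 in each of 4 groups taken from the sample titles. The deposited table gives FPKM, which the authors computed from reads of poly(A) RNA. The submitters' processing notes name Trimmomatic, HISAT2, Cufflinks and HTSeq and the build hg38, without saying what each was used for here. Whether counting used strand is not given in the sources used here. Total depth is unknown, FPKM cannot show it, and the number of libraries limits the precision.

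The 10 members and the related lists were chosen with earlier results of these data known. All members were named, and from each related list the called genes, up to 4 by size of the log2 fold change, or the 2 most abundant where none was called. Some others in the text (CTSC, PRSS57 with JOA, LTF, the DEFA1 group, SERPINB1, the neighbours' values and the markers) were singled out after their values were seen. Each comparison was fitted with limma 3.58.1 (R 4.3.3, lmFit and eBayes with a mean-variance trend) on log2(FPKM + 0.1), two-sided, among genes averaging at least 0.1 FPKM in the libraries fitted, with Benjamini-Hochberg adjustment over all of them. Fold changes are therefore on the log2(FPKM + 0.1) scale, which understates the change of low genes. A gene was called at an adjusted p under 0.05 and a log2 fold change of at least 0.58 in size, the interaction at the adjusted p alone. The study used DESeq, which needs counts, and this was not run on FPKM. The procedure without the block was tested on simulated data, with changes larger than any JOA difference of a member. Smaller changes, the blocked fits and the interaction were not covered.

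Control and JOA libraries of a line share replicate numbers in their titles. Deviations from group means correlated at 0.264 to 0.398 between same-numbered libraries in MOLM-13 and 0.139 to 0.319 in THP-1, against at most 0.0168 and -0.028 for other combinations, so the numbers were taken to pair the libraries, and fits with the number as a block are given where they change a call. Alternatives were other pseudocounts (0.01 and 1), other filters, scalings (TPM, median ratio), no variance trend, all 12 libraries in 1 fit, leaving out each library, and, chosen after seeing the data, leaving out each pair with the block. Gene positions are from GENCODE release 29 (GRCh38) and promoters from RefSeq (GRCh38.p14), read with Python 3.11.15 and Biopython 1.88. MPO, ELANE, LYZ and SRGN had no promoter entry. A result of a related list is not reported here.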

Additional observations from a re-analysis of the deposited data

Results flagged for a closer look

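Among the granule genes, ELANE drew attention because every pair of MOLM-13 libraries and every pair of THP-1 libraries pointed in opposite directions. Of all genes tested, 18.5% were higher with JOA in all 3 pairs of MOLM-13, and 19.4% were lower in all 3 pairs of THP-1. The share of all genes with both patterns is not given here. The ratio of JOA to control was 1.26, 1.09 and 1.13 in MOLM-13 and 0.862, 0.912 and 0.884 in THP-1. The interaction was -0.38 on the log2 scale (SE 0.17, limma adjusted p = 0.665, and 0.0762 when pairs were a block), so the test of the difference did not pass. Over the fits that leave out 1 library, the interaction ranged from -0.51 to -0.24. The interaction and this range rest on the same libraries that singled out ELANE, so they add no separate evidence. MOLM-13 had 0.5 μM JOA and THP-1 2 μM, so line and dose cannot be told apart.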

How the results depend on the processing

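The count of granule genes called between the control libraries was 2 higher and 5 lower under each alternative on those libraries with the fold threshold kept, including all 6 fits without 1 library, but 1 higher with the JOA libraries in their place. Without the fold threshold CFD passed as well. In THP-1 the number lower with JOA went from 0 to 1 (MPO) with the replicate block, and to 1 with the block and without pair 1 or pair 2, and in MOLM-13 it stayed at 0. The replicate block changed no other call of a granule gene in these 3 comparisons or in the interaction, and called 5593 genes instead of 5559 between the lines, 161 instead of 17 for JOA in THP-1 and 6 instead of 0 for the interaction. Some directions turned, among them those of CTSG and LYZ with JOA in THP-1 and of the CTSG interaction, and the cause was not tested. With median-ratio scaling, CFD in THP-1 was -0.0081 and the interaction of RNASE2 -0.011. With the block, RNASE3 in MOLM-13 was 0.037 without pair 2 and CFD in THP-1 -0.082 without pair 1. Leaving out 1 library, MOLM-13 ranges with JOA were -0.085 to 5.13e-05 for CTSG, -0.21 to 0.12 for RNASE3, -0.014 to 0.13 for RNASE2, 0.017 to 0.38 for LYZ, 0.064 to 0.33 for ELANE and 0.0093 to 0.31 for PRTN3. In THP-1 they were -0.73 to 0.087 for CTSG, -0.075 to 0.12 for CFD, -0.0059 to 0.11 for AZU1, -0.39 to 0.036 for LYZ, -0.00037 to 0.13 for RNASE2, -0.096 to 0.023 for PRTN3 and -0.93 to -0.30 for MPO. The line difference of MPO ranged from -0.37 to 0.18. Interactions ranged from -0.78 to -0.15 for MPO, -0.35 to -0.058 for PRTN3, -0.69 to 0.13 for CTSG, -0.059 to 0.091 for RNASE2 and -0.028 to 0.17 for SRGN. TPM scaling moved the median line difference of all genes from 0.06 to 0.17. The share of calls that were higher was 56.8% as deposited and 63.8% with TPM between the lines, and 41.2%, 50% with TPM and 31.2% with median-ratio scaling for JOA in THP-1. Member calls were the same under all 3 scalings. Depth is unknown, so precision for MPO and RNASE3 in THP-1 cannot be judged from counting.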
